A study of Mus musculus with 4 samples.

Results

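The genes described are the mouse zinc finger genes whose symbol is Zfp followed by a number below 900, with Zfp42, Zfp57 and Zfp352 left out. They were found by symbol among array probe sets annotated to exactly 1 gene, with the brightest probe set kept for each gene, and they number 278 of the 18820 genes tested. The genes were picked by name, while the probe set kept for each was picked by its mean level over all samples. The gene set was chosen with earlier results of these data known. The samples were 2 Trim28 knockout samples of mouse embryonic stem cells (KAP1 fl/fl, treated with 4-OH-tamoxifen) and 2 wild-type samples (labelled wild type, treated with 4-OH-tamoxifen as well), each on 1 Affymetrix Mouse Gene ST 1.1 array. Tamoxifen commonly serves to switch on an inducible recombinase that deletes floxed alleles. Neither the recombinase nor the relation between the wild-type line and the floxed line is given in the sources used here. All cells grew on irradiated embryonic fibroblasts, and whether each group is 1 clone is not given either. The labels call the samples biological replicates without naming separate cultures, so the p-values measure the spread between these samples only.

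Zinc finger proteins of this numbering carry, for the most part, repeated C2H2 fingers that each read a few bases of DNA. The largest class adds a KRAB domain, which binds Trim28 (also called KAP1), and Trim28 in turn brings the H3K9 methyltransferase Setdb1, HP1 proteins and histone deacetylases to the bound site. In embryonic stem cells this system is known for silencing endogenous retroviruses and guarding imprints, and KRAB zinc finger genes, many of which lie in tandem clusters, are themselves marked by Trim28 and H3K9 methylation in mouse and human cells. The numbering is a naming scheme, not a family. It also takes in proteins without a KRAB domain, RNA-binding proteins such as Zfp36 and a cytoskeletal LIM protein, Zfp185.

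Trim28 read 8.97 and 8.92 on the log2 scale in the knockout samples, against 11.29 and 11.37 in the wild-type samples, which is the direction the labels give (change -2.38, SE 0.09, limma adjusted p = 3.39e-05). All levels below are log2 expression as the authors deposited it, and all changes are knockout minus wild type on that scale. Of 10 stem cell markers, 7 fell and 0 rose (limma adjusted p under 0.05, past which 14.2% of all tested genes rose and 12.7% fell), yet their mean level stayed high, at 10.16 and 9.87 in the knockout samples and 10.57 and 10.55 in the wild-type samples. Of 21 fibroblast markers, which feeder cells share, 16 rose and 0 fell. Their mean level was 6.32 and 6.30 in the knockout samples and 5.19 and 4.82 in the wild-type samples, with single markers between 2.66 and 11.6 (Fap lowest, Vim highest). Since fewer cells of a type and less RNA per cell cannot be told apart in bulk samples, the part of this shift in the results below was not tested. Both marker lists were chosen with earlier results of these data known.

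Loss of Trim28 was accompanied by changes in both directions among the zinc finger genes, most of them small. Of the 278 genes, 33 were higher and 39 lower in the knockout at a limma adjusted p under 0.05, which is 25.9%, against 26.9% of all tested genes. By direction, 11.9% rose and 14% fell, against 14.2% and 12.7% of all genes, so the share of calls was close to the background. At least 2-fold changes were found for 5 genes (1.8%, against 5.89% of all genes), 4 of them rises. The median change was -0.03 for the zinc finger genes and -0.05 for all genes, and the interquartile range of the zinc finger genes ran from -0.22 to 0.18. The count of calls depended on single samples: fewer zinc finger genes were called with any 1 sample left out, as was so over all tested genes. The balance of rises and falls depended on scaling, for the zinc finger genes and for all tested genes. Rises were 45.8% of the zinc finger calls as deposited, against 52.8% of the calls over all genes. After quantile normalization they were 30.4% of 79 calls, against 46.7% over all genes. With array medians subtracted they were 22.2% of 108 calls, against 24.4% over all genes. That subtraction moved the median change over all tested genes from -0.05 to -0.22, further from 0.

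**Figure D1:**
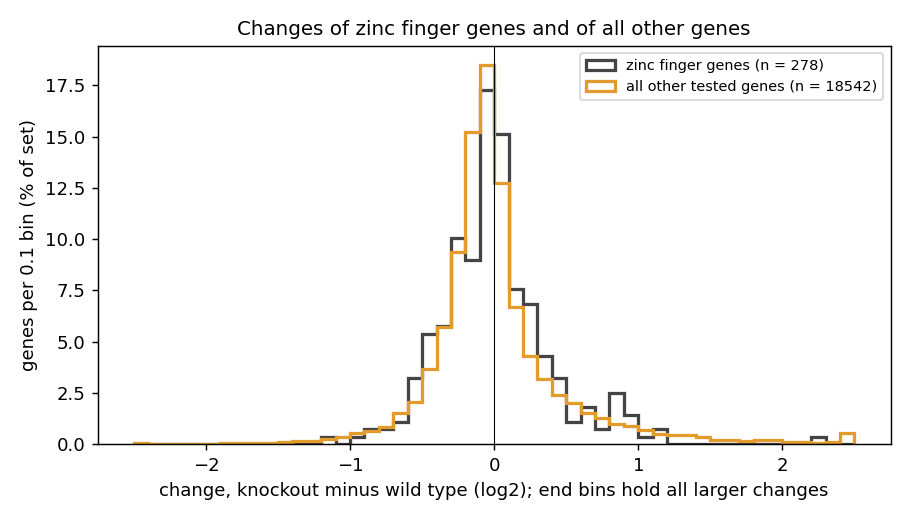
Histogram of the change per gene (log2, knockout minus wild type, x axis) as a percentage of each set (y axis), for the 278 zinc finger genes (dark line) and the 18542 other tested genes (orange line). Both curves peak just below 0, and the zinc finger genes have few changes beyond 1 in either direction.

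Zfp608, which in mouse thymocytes represses the Rag genes, rose far more than any other of these genes. It read 6.77 and 6.76 in the knockout samples, against 4.62 and 4.45 in the wild-type samples. The knockout values lay more than 2 log2 units above both wild-type values, a change of 2.22 (SE 0.10, 95% confidence interval 1.99 to 2.46, limma adjusted p = 5.38e-05), or 4.67-fold. Zfp703, a co-repressor of the NET family, read 6.10 and 6.50 in the knockout samples, against 5.09 and 5.19 in the wild-type samples (change 1.16, SE 0.14, limma adjusted p = 0.0016). Zfp185, an actin-associated LIM protein, read 7.14 and 7.44 in the knockout samples and 6.06 and 6.25 in the wild-type samples, a change of 1.14. Zfp362 completed the 4 genes that rose at least 2-fold, with 7.02 and 6.83 in the knockout samples against 5.87 and 5.86 in the wild-type samples (change 1.06, SE 0.10). For these 4 genes the groups were far apart compared with the gap between replicates, and each kept its call whichever sample was left out.

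The next rises were below 2-fold. Zfp697 rose by 0.99, Zfp560 by 0.94 and Zfp9 by 0.91. Zfp746, also called PARIS, a KRAB protein that represses the gene for PGC-1alpha, read 7.70 and 7.82 in the knockout samples, against 6.80 and 6.93 in the wild-type samples (change 0.89, SE 0.10, limma adjusted p = 0.00113). Zfp37 rose by 0.89, Zfp229 by 0.86, Zfp600 by 0.86, Zfp358 by 0.85, Zfp637 by 0.81, Zfp52 by 0.81 and Zfp791 by 0.79. Zfp560 stood at 3.32 ± 0.01 in the wild type (SD, n = 2), among the dimmer values on these arrays, for which no detection calls were used. Without wild-type replicate 2 the adjusted p was 0.0501 for Zfp697, 0.0666 for Zfp560, 0.0639 for Zfp229, 0.0557 for Zfp52 and 0.0932 for Zfp791, and the change of Zfp229 was 0.56. Without wild-type replicate 1 it was 0.0624 for Zfp560 and 0.183 for Zfp637, whose change was then 0.47, and without knockout replicate 2 it was 0.128 for Zfp637.

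The deepest fall was that of Zfp654, with 5.73 and 5.79 in the knockout samples, against 7.04 and 6.77 in the wild-type samples. Its change was -1.14 (SE 0.12, 95% confidence interval -1.42 to -0.87, limma adjusted p = 7.90e-04), a 2.21-fold lower level and the only fall past 2-fold. Zfp827, whose human counterpart brings the NuRD remodelling complex to telomeres, averaged 6.03 ± 0.13 in the knockout and 6.99 ± 0.01 in the wild type (SD, n = 2 each; change -0.96, SE 0.10). Zfp142 read 7.62 and 7.50 in the knockout samples, against 8.47 and 8.33 in the wild-type samples (change -0.84, SE 0.10). Zfp516, an activator of the brown fat gene Ucp1 in mice, read 6.97 and 6.76 in the knockout samples, against 7.69 and 7.72 in the wild-type samples (change -0.84, SE 0.11). In all 4 genes both knockout values lay below both wild-type values, as the rule that named them required. Each call held whichever sample was left out.

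Smaller falls were those of Zfp553 (-0.79), Zfp459 (-0.74), Zfp420 (-0.68), Zfp870 (-0.62), Zfp281 (-0.59), Zfp14 (-0.58), Zfp825 (-0.58), Zfp235 (-0.58), Zfp595 (-0.55), Zfp532 (-0.52) and Zfp704 (-0.51). Zfp459, Zfp281 and Zfp235 among them kept their calls with any 1 sample left out. The calls of Zfp420 and Zfp14 were lost without wild-type replicate 2 (adjusted p = 0.0556 and 0.0601) and those of Zfp553 and Zfp870 without wild-type replicate 1 (0.0819 and 0.0534). Zfp595 reached 0.0878 and 0.0569 without wild-type replicate 1 and 2, and Zfp825 0.128 and 0.111, as well as 0.0571 without knockout replicate 1. Zfp532 and Zfp704 lost their calls without wild-type replicate 1 (0.0811 and 0.0521), wild-type replicate 2 (0.0714 and 0.0917) and knockout replicate 2 (0.0521 and 0.0552).

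**Figure D2:**
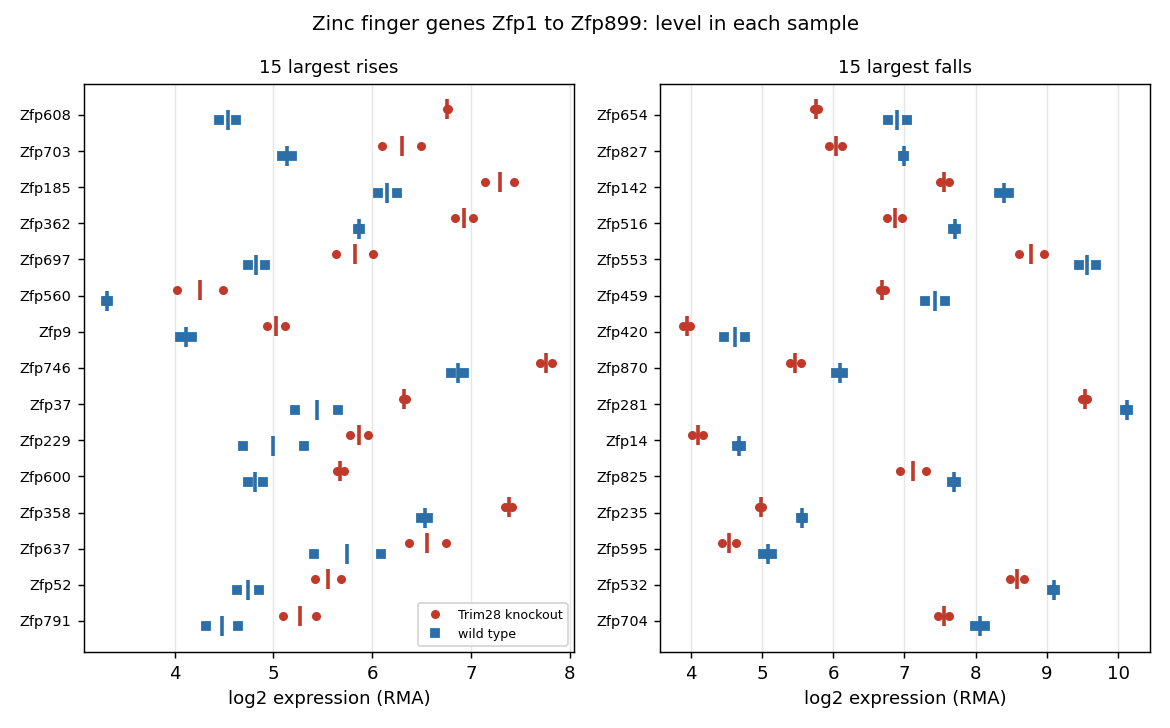
Log2 expression (x axis) of the 15 largest rises and 15 largest falls among the zinc finger genes (y axis), with knockout samples as circles, wild-type samples as squares and the group mean as a bar. In each of these 30 genes both knockout samples lie on 1 side of both wild-type samples, as the rule that named them required. Zfp608 has the widest gap.

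The other called genes moved less. After quantile normalization Zfp637, Zfp568 and Zfp282 lost their calls (adjusted p = 0.0683, 0.0629 and 0.0524), and with an intensity trend Zfp787 did (0.0566). A further 18 genes rose, by 0.36 to 0.76, and 24 fell, by between -0.51 and -0.33. For all 72 called genes the 2 groups did not overlap, as was so for 60.1% of the zinc finger genes and 65.2% of all tested genes. The 206 genes without a call had changes between -0.68 and 1.00, and 136 of them lay within 0.2 of no change. Under each of the 10 alternatives run on the whole table, 18 of the 72 kept their call. They were 11 rises (Zfp608, Zfp703, Zfp185, Zfp362, Zfp9, Zfp746, Zfp37, Zfp600, Zfp358, Zfp618 and Zfp800) and 7 falls (Zfp654, Zfp827, Zfp142, Zfp516, Zfp459, Zfp281 and Zfp235).

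Of 6 measured regulators of pluripotency, 3 fell (50%, against 12.7% of all tested genes) and 0 rose, with a median change of -0.30. This list and the lists below were chosen with earlier results of these data known, so their shares of calls are descriptions and not tests. Zfp281, which restrains Nanog and is needed to leave the naive state, read 9.57 and 9.50 in the knockout samples, against 10.14 and 10.10 in the wild-type samples, a fall of 0.59 (SE 0.09, limma adjusted p = 0.00406). Zfp462, which protects stem cell identity through H3K9 methylation by G9a and GLP, read 8.81 and 8.81 in the knockout samples, against 9.19 and 9.24 in the wild-type samples (change -0.41). Zfp217, which limits m6A methylation of pluripotency transcripts, read 7.98 and 7.99 in the knockout samples, against 8.31 and 8.31 in the wild-type samples (change -0.33). In all 3 the samples of a group differed by less than 0.1, though Zfp462 and Zfp217 each lost the call whichever sample was left out, with an adjusted p of up to 0.0898 and 0.123. Zfp296, an aid to reprogramming (change -0.26, adjusted p = 0.242), the Bub3-binding protein Zfp207 (-0.05, 0.738) and the Klf4 repressor Zfp706 (-0.01, 0.946) did not pass. Zfp706 was the brightest of the 278 genes, at 10.59 in the knockout and 10.61 in the wild type.

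Repressors of repeats, retroviruses or imprints went both ways. Of 6 measured members of the KRAB class, 2 rose (33.3%, against 14.2% of all tested genes) and 1 fell (16.7%, against 12.7%), with a median change of 0.09. Zfp600, from a mouse chromosome 4 cluster that acts on endogenous retroviruses in stem cells, read 5.64 and 5.71 in the knockout samples, against 4.74 and 4.89 in the wild-type samples, a rise of 0.86 (SE 0.10, limma adjusted p = 0.00128). Its near-identical neighbours make the assignment of its probe set uncertain. Zfp809, which silences retroviruses that use a proline primer site, read 9.23 and 9.23 in the knockout samples, against 8.83 and 8.75 in the wild-type samples (change 0.44, adjusted p = 0.0126). Its adjusted p was 0.0537 and 0.0831 without wild-type replicates 1 and 2, and 0.0537 with array medians subtracted. Zfp568, which represses a placental Igf2 transcript in mice, fell by 0.33 (adjusted p = 0.0392), and the call was lost with any 1 sample left out (up to 0.157). Zfp819, a retrotransposon repressor of stem cells, read 6.48 and 6.11 in the knockout samples and 7.41 and 6.55 in the wild-type samples. Its groups did not overlap, but the wild-type samples lay further from each other than the group means did (change -0.68, SE 0.27, adjusted p = 0.112). Its change was -0.25 without wild-type replicate 1 (adjusted p = 0.428) and -1.11 without wild-type replicate 2, where it passed (0.0334), as it did with array medians subtracted (-0.85, 0.0343). The imprint guardian Zfp445 (0.21) and Zfp708 (-0.04), which binds RMER19B repeats, did not pass.

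Among 7 RNA-binding or RNA-processing proteins, 1 fell (14.3%, against 12.7% of all tested genes) and 0 rose, with a median change of 0.08. Zfp598, the ubiquitin ligase of collided ribosomes, read 7.46 and 7.46 in the knockout samples, against 7.89 and 7.98 in the wild-type samples (change -0.47, limma adjusted p = 0.0098, and 0.0712 without wild-type replicate 2). Zfp36, or tristetraprolin, which triggers decay of AU-rich transcripts, had the largest change without a call. It read 7.68 and 6.68 in the knockout samples, against 6.43 and 5.93 in the wild-type samples (change 1.00, SE 0.32, adjusted p = 0.0598). Its knockout replicates differed by as much as its group means, and its change was 0.50 without knockout replicate 1 (adjusted p = 0.121) and 1.49 without knockout replicate 2 (0.0017). It also passed with an intensity trend (0.0421) and with dim genes left out (0.0498). The splicing regulator Zfp318 (change 0.39, adjusted p = 0.0574) passed without knockout replicate 2 (0.53, adjusted p = 0.025), while its change was 0.24 without knockout replicate 1 (0.238). Zfp346, which binds double-stranded RNA (0.30), Zfp326 (-0.22), Zfp106 (-0.20) and the HUSH partner Zfp638 (0.08) did not pass. With array medians subtracted, which lowers all changes by the same amount, Zfp326 and Zfp106 passed as falls (-0.39 and -0.37). So did Zfp296 of the pluripotency list (-0.43, but -0.05 without wild-type replicate 2) and the neuronal repressor Zfp536 (-0.38).

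Developmental cofactors held the widest changes. Of 10 members, 3 rose (Zfp608, Zfp703 and Zfp503) and 3 fell (Zfp516, Zfp704 and Zfp521), with a median change of 0.04. That is 30% each way, against 14.2% and 12.7% of all tested genes. Zfp503, or Nolz1, a striatal regulator and the paralog of Zfp703, read 5.10 and 5.40 in the knockout samples, against 4.69 and 4.66 in the wild-type samples (change 0.57, limma adjusted p = 0.0133). The call was lost without wild-type replicate 1 or 2 (0.0859 and 0.0995). Zfp521, an EBF partner that opposes adipocyte fate, read 5.66 and 5.83 in the knockout samples, against 6.15 and 6.23 in the wild-type samples (change -0.45). It lost the call without wild-type replicate 2 (0.114) or 1 (0.0787) or knockout replicate 1 (0.0805). Its paralog Zfp423 changed by -0.09 and did not pass. Zfp608 and its paralog Zfp609 also differed, since Zfp609 changed by 0.17 (adjusted p = 0.302). Neither difference between paralogs was tested. The neuronal Zfp536 (-0.21) and the epidermal Zfp750 (0.23) did not pass, and the change of Zfp750 was 0.53 without wild-type replicate 1 (adjusted p = 0.0439) and -0.07 without wild-type replicate 2.

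In the chromatin and housekeeping list 4 of 9 fell (44.4%, against 12.7% of all tested genes) and 1 rose (11.1%, against 14.2%), with a median change of -0.11. Besides Zfp827 and Zfp532, the GC-box factor Zfp148 (-0.35) and the SUMO ligase Zfp451 (-0.37) fell, and both lost the call with any 1 sample left out (adjusted p up to 0.159 and 0.169). Zfp644, whose human counterpart guides G9a and GLP, read 8.08 and 8.14 in the knockout samples, against 7.72 and 7.44 in the wild-type samples (change 0.53, limma adjusted p = 0.017). It reached 0.0924 without wild-type replicate 2 and 0.0568 without knockout replicate 2. Zfp687, a partner of ZMYND8 in human cells, read 8.68 and 8.68 in the knockout samples, against 8.33 and 8.43 in the wild-type samples. It missed the threshold (change 0.30, adjusted p = 0.0501), and passed with an intensity trend, with dim genes left out, after quantile normalization and with means over probe sets (adjusted p between 0.0395 and 0.0488). Zfp592 (-0.07), the Chd4 activator Zfp410 (0.14) and Zfp335 (-0.11) did not pass.

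**Figure D3:**
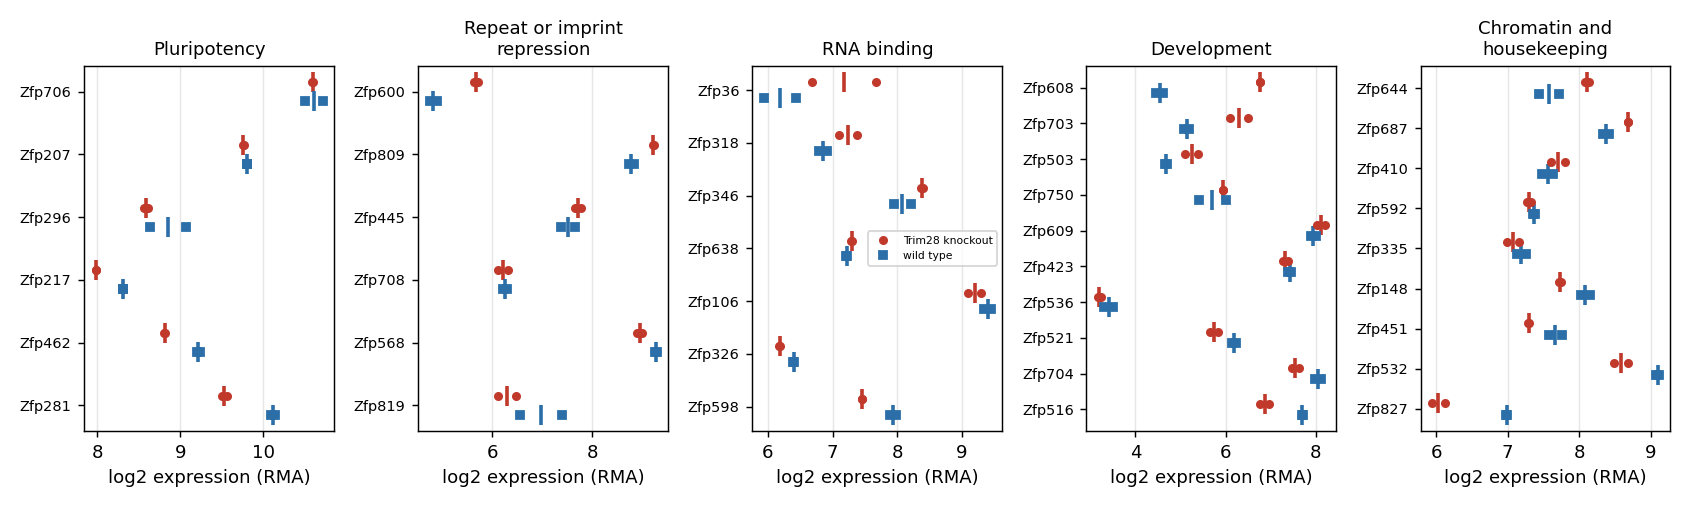
Log2 expression (x axis) of every measured gene of the 5 role lists (panels), with knockout samples as circles, wild-type samples as squares and group means as bars, ordered by change. Zfp608 and Zfp703 in the developmental panel and Zfp827 in the chromatin panel show the widest separation.

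The co-repressor machinery that KRAB proteins recruit, Trim28 included, had 4 rises and 4 falls among 24 measured genes (16.7% each, against 14.2% and 12.7% of all tested genes), with a median change of -0.14. Apart from Trim28 the largest changes were those of Resf1 (0.56, limma adjusted p = 0.0237), a Setdb1 cofactor, the NuRD subunit gene Chd3 (0.53, 0.0389) and the DNA methyltransferase gene Dnmt3b (0.52, 0.018). Each of these lost its call without at least 1 sample. The highest adjusted p was 0.13 for Resf1 without wild-type replicate 2, 0.212 for Chd3 without wild-type replicate 1 and 0.0965 for Dnmt3b without wild-type replicate 1. Chd3 also lost it without knockout replicate 2 and without wild-type replicate 2 (0.138 and 0.129), Dnmt3b without knockout replicate 2 (0.0634) and Resf1 without knockout replicate 1 (0.0777). Processing mattered as well: Chd3 lost its call after quantile normalization (limma adjusted p = 0.119) and with array medians subtracted (0.0838). With the mean of its 2 probe sets Chd3 changed by 0.38, without a call (0.167). Resf1 lost its call with array medians subtracted (0.0507). Setdb1 changed by -0.21 and did not pass (adjusted p = 0.126).

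By chromosome, 78 of the 278 genes lie on chromosome 7, followed by 26 on chromosome 17 and 25 on chromosome 13. On chromosome 7, 2 rose and 8 fell (12.8% called, against 24% of the other tested genes there). On chromosome 8, 6 of 19 rose and 1 fell, where 16.2% of the other tested genes rose and 9.94% fell. On chromosome 6, 6 of 15 rose and 1 fell, where 17.3% of the others rose and 6.67% fell. On chromosome 18, 5 of 10 fell while Zfp608 rose, where 12.7% of the others fell and 16.7% rose. All 3 on chromosome 1 fell, where 25% of the others fell. Some of these genes lie where their neighbours moved too. Over up to 50 nearest tested genes that are above the median level and are not numbered Zfp genes, the median change was -0.42 around Zfp281, -0.35 around Zfp142, 0.27 around Zfp9 and 0.25 around Zfp637. Around the 4 genes that rose at least 2-fold it was -0.07 (Zfp608), 0.19 (Zfp703), 0.09 (Zfp185) and -0.04 (Zfp362). It was 0.08 around Zfp654. On chromosome 14, 28.5% of the other tested genes rose. Without chromosomes 1, 6 and 14, 26 of 257 zinc finger genes rose (10.1%) and 35 fell (13.6%). Of all tested genes, on any chromosome, 14.2% rose and 12.7% fell. The part of the neighbourhoods in the changes of the zinc finger genes, Zfp281, Zfp142, Zfp9, Zfp637 and Zfp703 among them, was not tested.

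**Figure D4:**
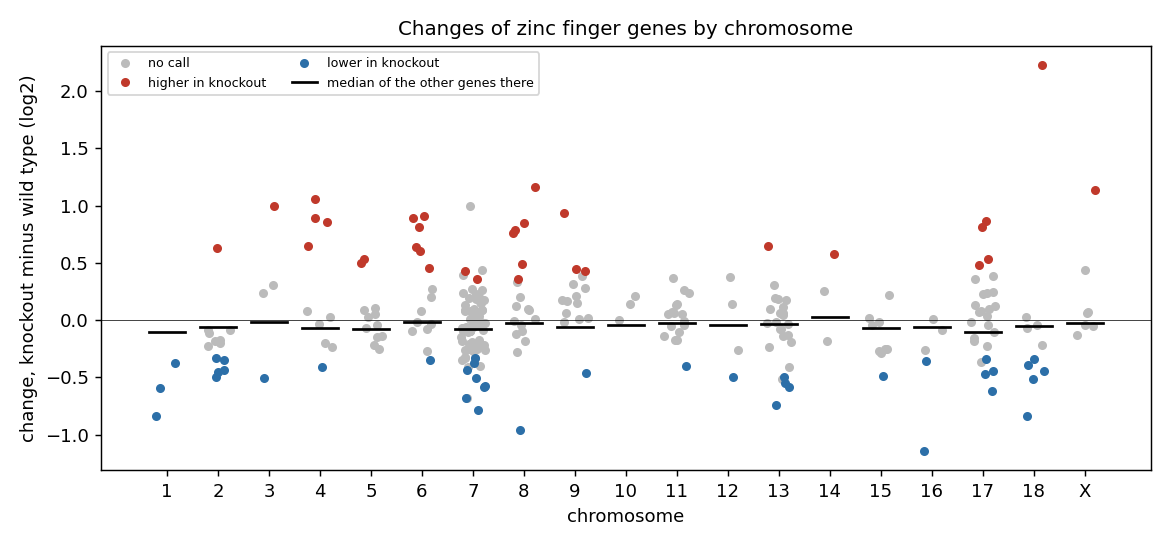
Change of each zinc finger gene (log2, knockout minus wild type, y axis) by chromosome (x axis), coloured by the limma call, with a black bar at the median of the other tested genes on that chromosome. Chromosome 7 holds 78 genes with 10 calls, and the outlying point at 2.22 on chromosome 18 is Zfp608.

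Clusters were runs of at least 4 of these genes with at most 3 other annotated genes between one and the next. There were 10 of them with 59 genes, of which 5 rose and 8 fell (22%, against 26.9% of the genes outside clusters and 26.9% of all tested genes). On chromosome 7, 33 genes lay in 5 clusters. Of these genes 5 fell (15.2%): Zfp787, Zfp235, Zfp420, Zfp568 and Zfp14. That share was close to those of the other tested genes on the chromosome (13.3%) and of all tested genes (12.7%). Of the 33 genes 0 rose, against 10.7% of the others there and 14.2% of all tested genes. Zfp787 (-0.44) lost its call without knockout replicate 1 or wild-type replicate 1 or 2 (adjusted p up to 0.236). In 3 chromosome 7 clusters the second largest changes, those of Zfp61 (-0.40), Zfp583 (-0.26) and Zfp790 (-0.25), were without a call, and these 3 passed as falls after quantile normalization. Zfp82 (-0.33) was without one as well. In a further cluster there no gene changed by more than 0.10, with Zfp579 and Zfp865 at 0.10 and 0.06. On chromosome 13 the cluster of 9 genes held 2 falls (22.2%), Zfp459 and Zfp595, and 0 rises. Of the other tested genes there 9.82% fell and 15.7% rose. A chromosome 9 cluster of 4 genes had 1 rise (25%), Zfp809, beside Zfp872 (0.32, without a call). A chromosome 6 cluster of 4 genes had 1 as well (25%), Zfp282 (0.45), beside Zfp212 (-0.27, without a call). Of all tested genes 14.2% rose. Zfp282 lost its call without wild-type replicate 1 or 2 (0.0674 and 0.0657). Zfp61 passed without knockout replicate 2 (-0.54, adjusted p = 0.0245) and changed by -0.26 without knockout replicate 1 (0.219). Zfp872 passed without knockout replicate 1 (0.45, 0.0408) and changed by 0.19 without knockout replicate 2 (0.373). The second chromosome 17 cluster, of 4 genes, had 1 fall (25%, against 12.7% of all tested genes), Zfp870, and Zfp563 (-0.22) without a call.

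In the first chromosome 17 cluster 3 of 5 genes rose and 0 fell, where 9.85% of the other tested genes on the chromosome and 14.2% of all tested genes rose. Zfp52 read 5.42 and 5.69 in the knockout samples, against 4.86 and 4.63 in the wild-type samples. Zfp677 (change 0.53, limma adjusted p = 0.0173) read 3.74 and 3.48 in the knockout samples and 3.14 and 3.01 in the wild-type samples, at the dim end of the array. Zfp54 rose by 0.48 (adjusted p = 0.0408), a call that did not hold with each sample left out in turn, and Zfp53 (0.24) and Zfp51 (0.10) did not pass. Zfp677 lost its call without wild-type replicate 2 or 1 or knockout replicate 1 (0.125, 0.0725 and 0.0638). Zfp229, the second member after this cluster along the chromosome, rose as well. All 4 rises on chromosome 17 thus lay among the first 8 of its 26 genes in order, and all 4 falls from the 13th on. The nearest other genes around this cluster had a median change of -0.17. Tandem copies of this kind can share probes, so the rises of neighbours cannot be taken as independent. Probe sharing among these genes was not tested.

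**Figure D5:**
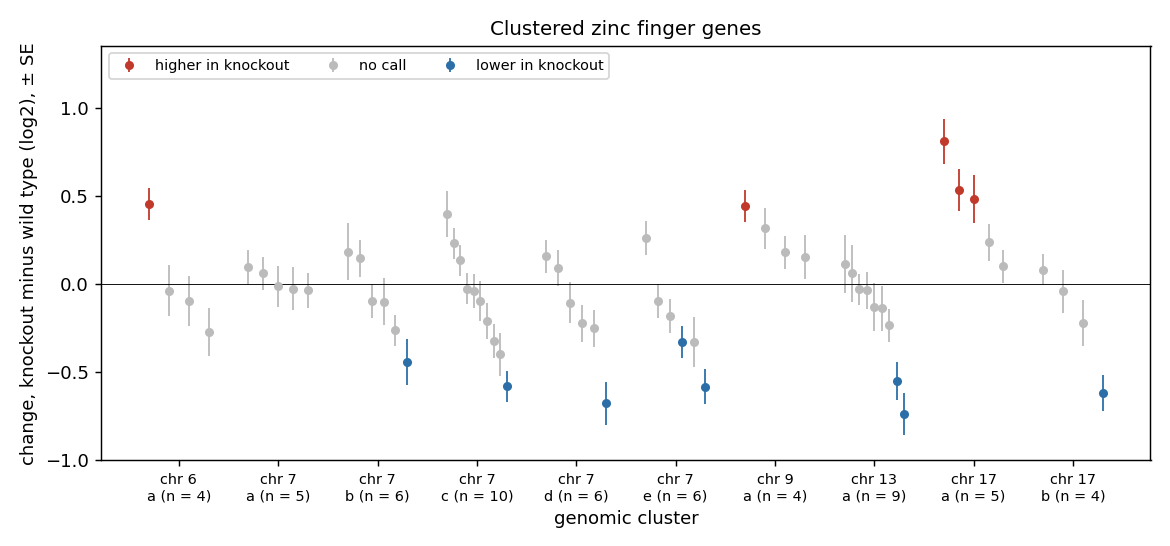
Change of each clustered zinc finger gene (log2, knockout minus wild type, y axis, ± SE of the limma fit) in the 10 genomic clusters (x axis, named by chromosome and a letter in order along it), sorted by change within a cluster. Rises stand together in the first chromosome 17 cluster. The called genes of the chromosome 7 clusters are all falls, 15.2% of the 33 genes there, against 12.7% of all tested genes.

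The promoters of the 4 chromosome 17 genes that rose are shown because these genes lie close together and moved in the same direction. Each window runs from 250 bases before to 50 after the RefSeq start in GRCm38.p6, on the plus strand, with CpG dinucleotides in capitals; for Zfp54 the first of 3 annotated starts is given. They lie at chr17:21383498-21383797 (Zfp677), chr17:21422977-21423276 (Zfp54), chr17:21535289-21535588 (Zfp52) and chr17:21733474-21733773 (Zfp229).
Zfp677: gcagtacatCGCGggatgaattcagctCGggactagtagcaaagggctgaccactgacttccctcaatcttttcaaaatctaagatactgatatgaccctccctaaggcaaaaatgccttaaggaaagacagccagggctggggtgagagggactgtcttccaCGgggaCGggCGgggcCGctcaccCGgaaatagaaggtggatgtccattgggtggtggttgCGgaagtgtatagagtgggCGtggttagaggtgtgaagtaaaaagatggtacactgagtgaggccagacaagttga
Zfp54: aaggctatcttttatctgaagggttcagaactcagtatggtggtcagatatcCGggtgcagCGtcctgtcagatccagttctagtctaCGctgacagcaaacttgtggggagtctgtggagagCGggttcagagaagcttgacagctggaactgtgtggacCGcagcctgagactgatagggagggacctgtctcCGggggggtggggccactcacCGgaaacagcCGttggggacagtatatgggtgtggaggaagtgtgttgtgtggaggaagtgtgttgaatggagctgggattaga
Zfp52: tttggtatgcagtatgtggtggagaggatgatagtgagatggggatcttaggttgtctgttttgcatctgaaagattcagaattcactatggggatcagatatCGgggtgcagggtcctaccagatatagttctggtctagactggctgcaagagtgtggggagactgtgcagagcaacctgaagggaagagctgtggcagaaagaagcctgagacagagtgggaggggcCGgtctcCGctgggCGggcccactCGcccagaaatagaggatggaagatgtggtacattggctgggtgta
Zfp229: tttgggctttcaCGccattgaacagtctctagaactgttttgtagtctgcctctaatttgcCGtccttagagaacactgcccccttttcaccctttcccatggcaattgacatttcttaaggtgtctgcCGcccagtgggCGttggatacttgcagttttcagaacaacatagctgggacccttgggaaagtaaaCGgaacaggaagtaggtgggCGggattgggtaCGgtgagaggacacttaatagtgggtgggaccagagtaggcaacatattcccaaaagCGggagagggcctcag
The windows hold 10, 8, 5 and 8 CpG in that order, and the richest of the 3 windows of Zfp54 holds 10. These numbers lie below the median of the zinc finger genes, 16 over the 225 genes with a RefSeq promoter (the richest window of each), and of all 14749 tested genes with one, 17. Genes that rose had a median of 19.5 (26 genes), those that fell one of 18 (29 genes) and those without a call one of 16 (170 genes).

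Short letters of 4 motifs were sought on both strands of these windows. The letters ACTACAA, part of the site of the zinc finger protein ZNF143 (mouse Zfp143), occurred in 18 of 225 zinc finger gene promoters (8%), against 4.18% of all tested genes. Of these 18 genes 4 rose (Zfp697, Zfp229, Zfp600 and Zfp358) and 2 fell (Zfp277 and Zfp692). That is 33.3% called, against 23.7% of the zinc finger genes without these letters and 26.9% of all tested genes. The letters GCGCATG, part of the NRF1 site, were in 11.1% of the zinc finger gene promoters, against 5.84% of all. Of those 25 genes 3 rose and 1 fell (16% called, against 25.5% without the letters). The letters ATGGCGG, part of the YY1 site, were in 12%, against 6.48% of all. Of those 27 genes 1 rose and 2 fell (11.1% called, against 26.3% without). The letters TATAAA were in 9.78%, against 13.8% of all. Of those 22 genes 3 rose and 2 fell (22.7% called, against 24.6% without). Windows with these letters thus stood before genes that rose and genes that fell. The largest rise and the largest fall among genes with the ZNF143 letters are shown with these in capitals, at chr3:98382231-98382530 on the plus strand (Zfp697) and chr12:40445741-40446040 on the minus strand (Zfp277) of GRCm38.p6.
Zfp697: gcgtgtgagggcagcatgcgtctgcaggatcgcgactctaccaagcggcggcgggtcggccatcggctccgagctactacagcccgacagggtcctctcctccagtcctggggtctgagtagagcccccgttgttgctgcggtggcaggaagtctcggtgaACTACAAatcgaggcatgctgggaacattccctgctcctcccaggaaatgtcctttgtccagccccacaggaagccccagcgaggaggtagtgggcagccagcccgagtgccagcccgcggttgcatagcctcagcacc
Zfp277: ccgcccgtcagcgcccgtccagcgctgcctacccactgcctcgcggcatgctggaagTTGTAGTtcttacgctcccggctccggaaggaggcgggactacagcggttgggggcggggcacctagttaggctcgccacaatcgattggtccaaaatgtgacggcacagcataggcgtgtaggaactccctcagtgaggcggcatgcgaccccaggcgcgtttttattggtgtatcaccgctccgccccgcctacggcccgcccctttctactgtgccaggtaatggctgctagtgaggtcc
The match begins at -89 from the start in Zfp697 and at -193 in Zfp277. Zfp697 read 5.64 and 6.01 in the knockout samples, against 4.92 and 4.74 in the wild-type samples (change 0.99, SE 0.14). Zfp277 read 7.97 and 7.91 in the knockout samples, against 8.34 and 8.53 in the wild-type samples (change -0.49, SE 0.10), and its call did not hold with each sample left out in turn. For both genes the groups did not overlap.

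The zinc finger genes were of middling level, with medians of 6.02 in the knockout and 5.99 in the wild type, against 5.64 and 5.47 for all tested genes. Between genes, array levels depend on the probes, so these medians describe array values only. Tested genes were divided by mean level into 4 bins of equal size. Of 39 zinc finger genes in the brightest bin 3 rose and 13 fell (41% called, against 32.5% of all genes there). In the bin below it 16 of 136 rose and 18 fell (25%, against 43.9%). In the next, 12 of 85 rose and 8 fell (23.5%, against 27.8%), and in the dimmest 2 of 18 rose and 0 fell (11.1%, against 3.63%). The shares of all genes in these bins were not split by direction, so no such background stands beside the 13 falls. Of 15 genes read by several probe sets, 4 had probe sets that differed by over 0.2 in change, and 3 had probe sets of opposite sign, all 3 of them without a call. The 3 probe sets of Zfp640 changed by 0.82, 0.80 and 0.64.

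Zinc finger genes numbered from 900 up, the set most like this one, numbered 32. Of these, 6 rose and 5 fell (34.4%, against 26.9% of all tested genes). At least 2-fold changes were found for 3 of them (9.38%), against 5.89% of all tested genes and 1.8% of the genes numbered below 900. Their median change was 0.03, and the difference between the sets was not tested.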

How the data were processed

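Biotinylated cDNA from 250 ng of total RNA was hybridised to 1 array per sample, per the labels' protocols, which name 24 h of inducer or vehicle and 48 h of culture after it. The authors deposited log2 expression values for 35556 probe sets, and the submitters' processing notes list affy and RMA without versions or order. No detection calls entered the analysis, and the small number of arrays (2 per group) sets the precision. Of the probe sets, 21218 were annotated to 1 symbol, 1881 to several and 12457 to none. For each of 18820 genes the probe set with the highest mean was kept, and no gene was filtered out. Gene order and chromosomes came from the GRCm38.p6 RefSeq table, which held 277 of the 278 genes by gene ID and 1 by symbol.

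Changes are knockout minus wild type from limma 3.58.1 (lmFit and eBayes, R 4.3.3), two-sided, with Benjamini-Hochberg adjustment over all 18820 genes and a threshold of 0.05. The fit was tested on simulated data. Alternatives were a block for the replicate number, an intensity trend, a filter on dim genes, quantile normalization, array medians subtracted, means over probe sets and each sample left out. For counts, a threshold of 0.1 and symbols with a letter after the number were added. Leaving out chromosomes 1, 6 and 14 was chosen after seeing the data. The gene set, the lists and the rules were chosen with earlier results of these data known. The rule named the 15 largest rises and the 15 largest falls past the threshold, among genes whose 2 groups did not overlap. It also named every measured gene of 5 role lists, up to 2 genes per cluster with the largest change, Trim28 and 3 of the co-repressor list. Other genes were named after their values were seen. The promoter motifs were also chosen after seeing the data: longer forms of the first 3 were searched before the short ones, the counts of calls differed between the forms, and only the short forms are reported. A split into KRAB and other proteins by protein sequence was planned and not analysed here. RefSeq promoters were matched by symbol for 225 of the 278 genes, of which 43 have several windows.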

Additional observations from a re-analysis of the deposited data

Results flagged for a closer look

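Probe sets annotated to several genes took no part in the comparison. Of these, 30 carry a Zfp symbol numbered below 900, and 18 of them name at least 1 of the 278 genes, while in the other 12 the Zfp gene below 900 has no single-gene probe set and is not among the 278. In a limma fit over all 23099 annotated probe sets, 7 of the 18 were higher in the knockout. Of all 30, 13 were higher and 1, which names none of the 278, was lower (25% of all probe sets were called, 13.3% higher). The 13 drew attention because their signal was above that of the wild-type samples. Of 3 probe sets shared by Zfp772 and Gm45351, 2 were higher, by 0.92 and 0.91. The first of them read 5.81 and 5.77 in the knockout samples, against 4.86 and 4.88 in the wild-type samples, while the single-gene probe set of Zfp772 changed by 0.44 without a call (adjusted p = 0.069). Probe sets shared by Zfp640 and Gm10324 were higher by 0.76, 0.62 and 0.57, and that of Zfp219 and Arhgef40 by 0.57. The probe set of Rex2, Zfp980, Zfp600 and Zfp982 was higher by 0.51 and that of Zfp442 and Zfp937 by 0.47. Probe sets of Zfp534 with Zfp987 and further copies were higher by 0.46, 0.42, 0.40, 0.38 and 0.38, the last pair with identical values. Which copy gave the signal cannot be told apart from these probe sets. With 2 samples per group, no test for outlying samples was made.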

How the results depend on the processing

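All 72 called zinc finger genes kept their direction in each of 10 alternatives fitted on the whole table, and 18 kept the call in every one. With array medians subtracted, 8457 genes were called (34% of all lower), among them 84 falls of zinc finger genes and 21 calls among the clustered ones. With 1 sample left out at a time, where a lone sample is assumed to vary like the other group, the calls ranged from 2430 to 4350 over all genes (8.13% to 12.8% higher, 4.78% to 10.3% lower). They ranged from 27 to 56 for the zinc finger genes (15 to 31 higher, 12 to 25 lower, 4 to 12 of those in clusters) and from 5 to 8 for genes numbered from 900 up. With the replicate block, 77 zinc finger genes were called and 5093 genes in all. The labels do not say that the numbers mark pairs, and the differences between replicates 1 and 2 correlated between groups at 0.15 over all genes and 0.23 over the zinc finger genes. With only 2 pairs, the samples share only a number. Of the genes named by rule, the block gave calls to Zfp36 (adjusted p = 0.0056), Zfp819 (0.0178), Zfp61 (0.0318) and Zfp82 (0.0476) and took that of Zfp787 (0.0658). Reversals were followed for the genes named by rule, and those that reversed were all without a call. Subtracting array medians lowers all changes by the same amount, so small rises of genes not followed turn as well. With quantile normalization the genes that reversed were Zfp207 (0.0065), Zfp706 (0.015) and Zfp865 (-0.043). With array medians subtracted they were Zfp638 (-0.094), Zfp609 (-0.0038), Zfp410 (-0.029), Zfp579 (-0.073) and Zfp865 (-0.11), and with the mean of probe sets Zfp706 (0.0017). With 1 sample left out, the change ranged from -0.12 to 0.096 for Zfp706, from -0.14 to 0.067 for Zfp708 and from -0.068 to 0.53 for Zfp750. The cause was not tested. The planned results for KRAB and other proteins were not run.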
